A study of Mus musculus with 12 samples.

Results

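This account follows 38 genes of autophagy and lysosomes in mouse hematopoietic stem cells (HSCs), at steady state and during recovery from 5-fluorouracil (5-FU), with and without antibiotics. The genes were taken by symbol from the deposited expression table, which has 46986 features, and every symbol was found. Of the 38 members, 32 had at least 1 RPKM (reads mapped to a gene, scaled by its length and the library's mapped reads) in at least 3 libraries and were tested among 8553 genes that passed the same filter. *Atg16l1* reached 1 RPKM in 1 library and was not tested. *Atg5*, *Atg7*, *Wipi1*, *Optn* and *Tfeb* were under 1 RPKM in every library and are stated as not measured.

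Autophagy wraps cytoplasm in a growing membrane, which closes into an autophagosome and fuses with a lysosome, where hydrolases that work at acid pH break down the contents. Proteins of the Atg8 family are attached to that membrane and hold receptors that bring in ubiquitin-tagged cargo, while the vacuolar proton pump (V-ATPase) acidifies the lysosome. In HSCs autophagy is known for removing mitochondria and for preserving the stem cell pool, and TFEB and TFE3 are transcription factors that switch on many autophagy and lysosome genes through a DNA element called CLEAR.

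The mice were of strain C57BL/6 and 12 weeks old, and RNA came from HSCs sorted from their marrow, with 2000 sorted cells behind each library. There were 12 libraries in 4 groups of 3: control and antibiotics at steady state, and control 5-FU and antibiotics 5-FU on day 12 after 5-FU, an antimetabolite that kills dividing marrow cells, given intravenously at 200 mg/kg. The antibiotics were vancomycin, metronidazole, neomycin and ampicillin, given together in the drinking water over 4 to 6 weeks, a combination known to deplete gut bacteria. The labels name no genetic alteration. How the HSCs were gated is not stated in the sources used here, nor is whether each library is an animal of its own. The p-values therefore rest on the spread between libraries alone, which may be technical. Values are RPKM. Changes are log2 differences of RPKM + 1 ± SE from limma, and a gene is called at a Benjamini-Hochberg adjusted p under 0.05 over all genes tested. On this scale the changes of genes near 1 RPKM are understated.

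The libraries summed to between 142127 and 176924 RPKM, and their depth, estimated from what 1 read is worth in genes with few reads, ran from 27.8 to 54.8 M reads. Of 14 genes on the HSC list, *Mecom* and *Cd48* were under 1 RPKM throughout, and *Kit* lay between 13.3 and 17.4. The list also holds *Cd34*, *Flt3* and *Cd48*, which are not markers of HSCs alone, so its counts do not measure HSC identity. Of its 11 genes tested, 6 rose and 2 fell in the mean of both arms. Over all genes tested 20.2% rose and 23.4% fell in that mean, which are the shares to set beside each marker count here. Sums over marker lists of other cells also differed with 5-FU. The macrophage list (15 genes, 7 of them under 1 RPKM in all libraries, *Adgre1*, *Csf1r* and *Mertk* included) summed to 202 to 268 in control, 304 to 372 in control 5-FU, 167 to 199 in antibiotics and 254 to 295 in antibiotics 5-FU. *Apoe* alone averaged 215, 335, 162 and 267 in that order, and of the 8 macrophage markers tested 4 had a positive and 4 a negative mean change, with 2 higher and 1 lower called and a median of -0.03. The neutrophil and monocyte list (16 genes, 4 under 1 RPKM throughout) ranged from 143 to 160, 156 to 449, 115 to 146 and 142 to 169 in the same order of groups. The erythroid list (10 genes, *Alas2* among those under 1 RPKM throughout) ranged from 29.7 to 306, 145 to 230, 40.6 to 58.8 and 168 to 510, and 3 of 6 tested rose in the mean of both arms, with a median of 1.69. The megakaryocyte and platelet list (11 genes, *Gp6* under 1 RPKM throughout) ranged from 65.7 to 154, 124 to 431, 90.8 to 95.0 and 132 to 151, and 6 of 10 tested rose, with a median of 0.78. The part of these cells in the changes below was not tested, and in bulk RNA fewer cells of a type and less RNA per cell cannot be told apart.

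The stroma and endothelium list (8 genes, 3 of them under 1 RPKM throughout) set 2 libraries apart: control 5-FU replicate 1 and antibiotics 5-FU replicate 1, which share an i7 index, summed to 16.2 and 29.7, against at most 6.34 in the other 10 libraries. Each i7 index is shared by 1 library with and 1 without antibiotics, and no index spans both steady state and 5-FU, so index and 5-FU cannot be told apart. Changes that rest on these 2 libraries are given with and without them.

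After 5-FU the members that passed the test rose, in both arms of the study. Without antibiotics 7 of 32 rose and 0 fell, against 9.74% of all genes tested that rose and 11.8% that fell. With antibiotics 10 of 32 rose and 0 fell, against 13.7% and 16.5% of all genes. The autophagy receptors *Sqstm1* and *Nbr1*, the Atg8 protein gene *Map1lc3b*, the lysosomal membrane gene *Lamp2* and the lysosomal protease gene *Ctsa* rose in each arm. The members' median change was 0.18 without and 0.25 with antibiotics, beside 0.00 and -0.01 over all genes.

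Averaged over both arms, which uses all 12 libraries, 19 members rose and *Cd63* fell, against 20.2% of all genes that rose and 23.4% that fell. The groups did not overlap, with the 3 libraries after 5-FU all higher, for 18 of 32 members without antibiotics and for 20 with them, against 18.6% and 23.1% of all genes. The 5-FU libraries lay lower without overlap for 0 members without antibiotics, beside 18.3% of all genes, and for 1 with them, *Cd63*, beside 26.8%. *Npc1*, counted among the members that rose and those higher without overlap, reached 1 RPKM only in libraries after 5-FU.

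**Figure D1:**
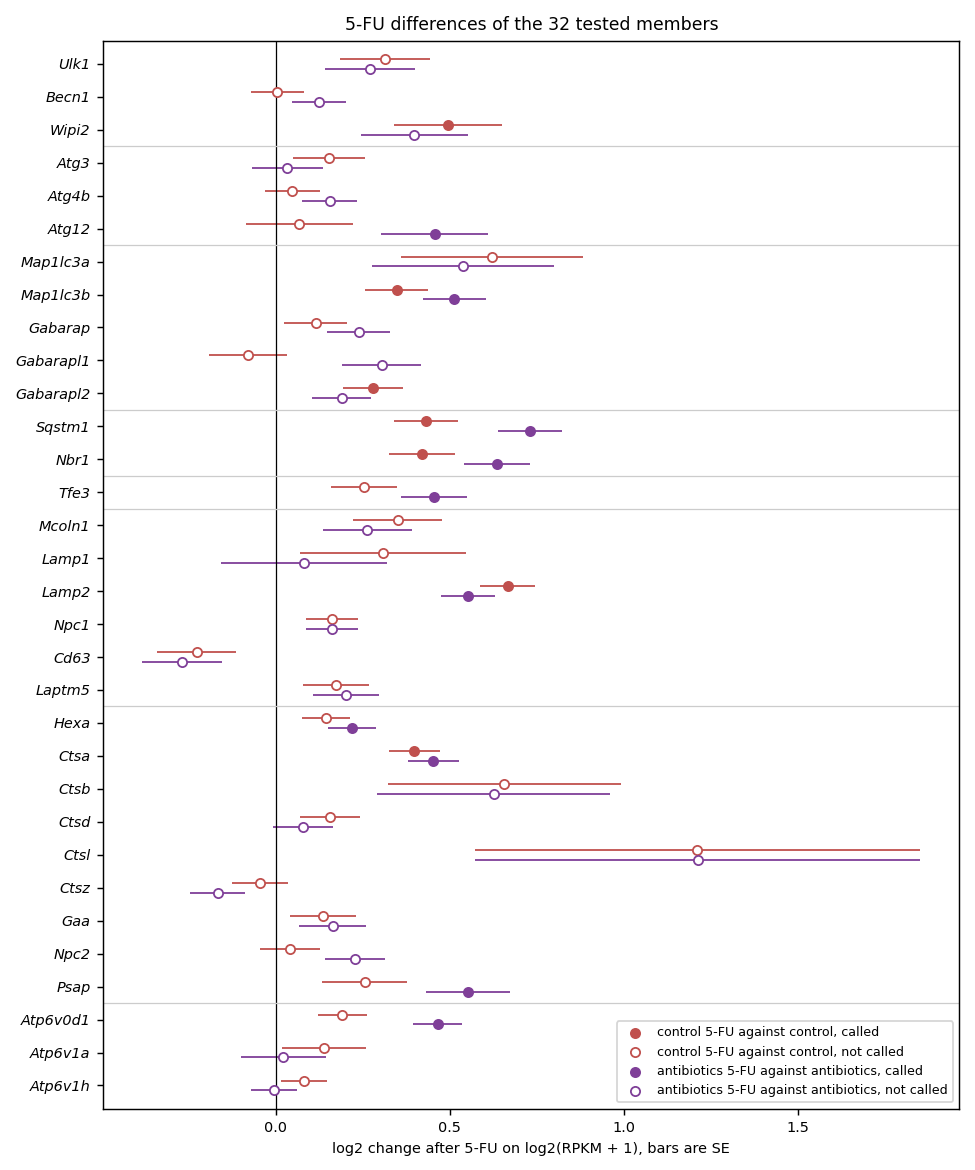
Log2 change after 5-FU on log2(RPKM + 1), with its SE as a bar, for the 32 tested members, without antibiotics (red) and with antibiotics (purple); filled points are called at an adjusted p under 0.05, and grey lines separate the roles. Most points lie right of 0, the called ones among them, while *Cd63* and *Ctsz* lie left of it in both arms and the 2 arms of *Ctsl* have the longest bars.

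Among the genes that start an autophagosome, *Ulk1*, the kinase that receives the signals of mTORC1 and AMPK, was at 1.13, 1.55 and 1.41 RPKM in control and 1.38, 2.27 and 2.22 in control 5-FU. It was at 1.43, 1.19 and 0.983 in antibiotics and 1.43, 1.76 and 1.76 in antibiotics 5-FU. In each arm replicate 1 after 5-FU overlapped its steady-state group, and *Ulk1* rose only in the mean of both arms, by 0.29 ± 0.092 (limma adjusted p = 0.0233). That call was lost in 6 of the 12 fits that leave out 1 library, with an adjusted p of up to 0.0575.

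*Wipi2*, which reads phosphatidylinositol 3-phosphate on the growing membrane and recruits the conjugation machinery, was at 2.18, 2.02 and 2.20 RPKM in control and 2.70, 3.03 and 4.79 in control 5-FU. Its antibiotics libraries were at 3.35, 2.36 and 2.34, and antibiotics 5-FU at 4.03, 3.39 and 4.07. All libraries after 5-FU lay above those before it within each arm, with antibiotics replicate 1 close to the lowest of its 5-FU group. *Wipi2* rose without antibiotics by 0.50 ± 0.15 (limma adjusted p = 0.041), a call lost in 7 of 12 fits without 1 library (adjusted p up to 0.13), and the change with antibiotics was 0.40 ± 0.15 (adjusted p = 0.0716). In the mean of both arms it rose by 0.45, a call that held in every alternative run (adjusted p up to 0.0306). *Becn1*, the scaffold of the autophagic phosphatidylinositol 3-kinase, averaged 6.79 ± 0.597 in control and 6.81 ± 0.299 in control 5-FU (SD, n = 3 each), a change of 0.00 with a 95% confidence interval of -0.16 to 0.17. *Wipi1*, a relative of *Wipi2*, did not exceed 0.43 RPKM.

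The rest of the initiation machinery could be followed through 16 other genes found in the table, of which 11 were tested. In the mean of both arms 10 of the 11 rose and 0 fell, beside 20.2% and 23.4% of all genes, with a median change of 0.27 (4 rose without and 7 with antibiotics). *Atg9a*, the membrane scramblase of the seed vesicles, went from 5.67 ± 0.588 to 7.99 ± 0.63 RPKM without antibiotics and from 5.29 ± 0.597 to 9.73 ± 1.14 with them (SD, n = 3). *Wdr45*, of the same phosphoinositide-binding family as *Wipi2*, rose by 0.48 ± 0.07 in the mean of both arms and *Atg14*, the autophagy subunit of the kinase complex, by 0.27 ± 0.052 (limma adjusted p = 0.000353 and 0.00189).

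The enzymes that attach Atg8 proteins to the membrane gave 1 call. *Atg12*, a ubiquitin-like protein that joins Atg5 in the ligase, was at 9.52, 10.4 and 9.32 RPKM in control and 9.17, 10.8 and 10.9 in control 5-FU. It was at 6.86, 6.51 and 11.3 in antibiotics and 10.9, 11.7 and 11.5 in antibiotics 5-FU. Antibiotics replicate 3 stood as high as the 5-FU libraries and the groups overlapped. *Atg12* rose with antibiotics by 0.46 ± 0.15 (limma adjusted p = 0.0436), a call lost in 10 of the 12 fits without 1 library (adjusted p up to 0.167). Its change without antibiotics was 0.07 ± 0.15.

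*Atg3*, the conjugating enzyme for Atg8 proteins, ranged from 1.09 to 1.85 RPKM, and *Atg4b*, the protease that primes and releases them, from 1.68 to 2.41, with no call in any comparison. *Atg16l1*, which places the ligase on the membrane, ranged from 0.565 to 1.21. *Atg5* stayed between 0.562 and 0.697 and *Atg7*, the activating enzyme, between 0.178 and 0.46. Of 6 other conjugation genes 3 were tested, and 2 of them rose in each arm, beside 9.74% of all genes without and 13.7% with antibiotics. *Tecpr1*, which recruits Atg5 to lysosomes, averaged 1.62 ± 0.188 in control, 2.57 ± 0.386 in control 5-FU, 1.51 ± 0.235 in antibiotics and 3.35 ± 0.133 in antibiotics 5-FU. *Atg16l2*, a paralog of *Atg16l1*, rose in the mean of both arms by 0.45 ± 0.067 (limma adjusted p = 0.000366).

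The Atg8 family spanned a wide range of levels. By median RPKM over the 12 libraries the order was *Map1lc3b* at 64.2, *Gabarap* at 41.4, *Gabarapl1* at 27.3, *Gabarapl2* at 7.76 and *Map1lc3a* at 3.33. This order rests on how reads shared with processed copies were assigned: *Gabarapl2* and its copies together summed to between 46.7 and 68.7, above *Gabarapl1* in every library. Each RPKM is scaled by the feature's own length, so this sum is not a level of expression and sets no other order. As listed, the ranges of *Gabarap* (34.0 to 49.3) and *Map1lc3b* (47.9 to 81.9) met, while *Gabarapl1* (19.5 to 29.1) lay below the one and above *Gabarapl2* (6.34 to 8.93) in every library. *Gabarapl2* and *Map1lc3a* (1.97 to 6.52) overlapped narrowly.

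*Map1lc3b*, which encodes LC3B, the protein most used to mark autophagosomes (chr8:121590361-121598760), was at 60.2, 60.0 and 59.5 RPKM in control and 68.2, 81.9 and 80.2 in control 5-FU. It was at 47.9, 52.5 and 59.7 in antibiotics and 77.8, 76.8 and 74.2 in antibiotics 5-FU. In both arms each 5-FU library exceeded each steady-state library. *Map1lc3b* rose by 0.35 ± 0.09 without antibiotics and 0.51 ± 0.09 with them (limma adjusted p = 0.0198 and 0.00214). The call without antibiotics was lost without control replicate 3 (adjusted p = 0.0613), control 5-FU replicate 2 (0.0636) or control 5-FU replicate 3 (0.0697), with these groups fitted alone (0.0619), and with no filter on low values (0.0505).

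Reads of *Map1lc3b* may be shared with processed pseudogenes, and how such reads were counted is not stated in those sources. *Gm6055* is 99.7% identical to it over 378 bases, and its RPKM, 76.9 ± 1.92 in control and 96.1 ± 13.2 in control 5-FU, was above that of *Map1lc3b* itself. *Gm6055* went from 67.4 ± 6.69 in antibiotics to 107.6 ± 4.94 in antibiotics 5-FU, a rise of 0.67 ± 0.10 (limma adjusted p = 0.00107). Without antibiotics its change was 0.31 ± 0.10 (adjusted p = 0.0517). The copy was higher after 5-FU in each arm, as the gene was, and the level of either is uncertain.

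*Gabarapl2*, a member of the GABARAP branch, was at 7.85, 6.34 and 6.497 RPKM in control and 8.93, 8.72 and 8.02 in control 5-FU. It was at 6.52, 7.28 and 7.28 in antibiotics and 8.36, 8.44 and 7.66 in antibiotics 5-FU, so both arms were free of overlap. *Gabarapl2* rose without antibiotics by 0.28 ± 0.086 (limma adjusted p = 0.0384), a call lost in 7 of 12 fits without 1 library (adjusted p up to 0.128), and changed by 0.19 ± 0.086 with them (adjusted p = 0.113). In the mean of both arms it rose by 0.23, a call that held in every alternative run (adjusted p up to 0.037). Its processed copy *Gm3724*, 99.4% identical over 349 bases, had the higher RPKM, with 42.5 ± 5.23 in control and 51.4 ± 2.18 in control 5-FU.

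*Gabarapl1* went from 27.0 ± 0.622 to 25.5 ± 1.97 without antibiotics and from 23.2 ± 4.59 to 28.6 ± 0.532 with them (SD, n = 3), and neither change was called. *Map1lc3a*, the LC3A gene, was at 2.99, 1.97 and 2.41 in control and 4.15, 3.37 and 5.55 in control 5-FU, without overlap. It was at 5.15, 2.46 and 2.40 in antibiotics and 5.89, 3.29 and 6.52 in antibiotics 5-FU, where the high antibiotics replicate 1 overlapped the 5-FU libraries. In the mean of both arms *Map1lc3a* rose by 0.58 ± 0.18 and *Gabarap* by 0.18 ± 0.063 (limma adjusted p = 0.0252 and 0.0415). Both calls were lost without the pair of libraries that stood apart in the stroma and endothelium list (adjusted p = 0.0701 and 0.128), and in 6 and 9 of 12 fits without 1 library.

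*Sqstm1*, encoding the receptor p62, which binds ubiquitin and Atg8 proteins and is itself degraded by autophagy, lies at chr11:50199366-50210827. It was at 30.8, 27.4 and 26.3 RPKM in control and 36.5, 38.8 and 39.7 in control 5-FU, and at 20.03, 21.1 and 25.4 in antibiotics and 36.8, 37.1 and 38.1 in antibiotics 5-FU. The antibiotics libraries were the lowest of all, and the 6 libraries after 5-FU stood within 36.5 to 39.7 and above the other 6. *Sqstm1* rose by 0.43 ± 0.091 without antibiotics and 0.73 ± 0.091 with them (limma adjusted p = 0.00864 and 0.000436), and both calls held in every alternative run.

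*Nbr1*, a receptor of the same architecture (chr11:101552149-101581951), was at 4.10, 4.26 and 3.62 RPKM in control and 4.97, 5.46 and 6.71 in control 5-FU. It was at 3.93, 3.51 and 3.81 in antibiotics and 6.23, 6.72 and 6.19 in antibiotics 5-FU. The groups were apart in both arms. *Nbr1* rose by 0.42 ± 0.095 and 0.64 ± 0.095 (limma adjusted p = 0.0112 and 0.000986), and the call without antibiotics was lost without control replicate 3 (adjusted p = 0.0505) and with these groups fitted alone (0.059). *Optn*, another receptor, did not exceed 0.40 RPKM.

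**Figure D2:**
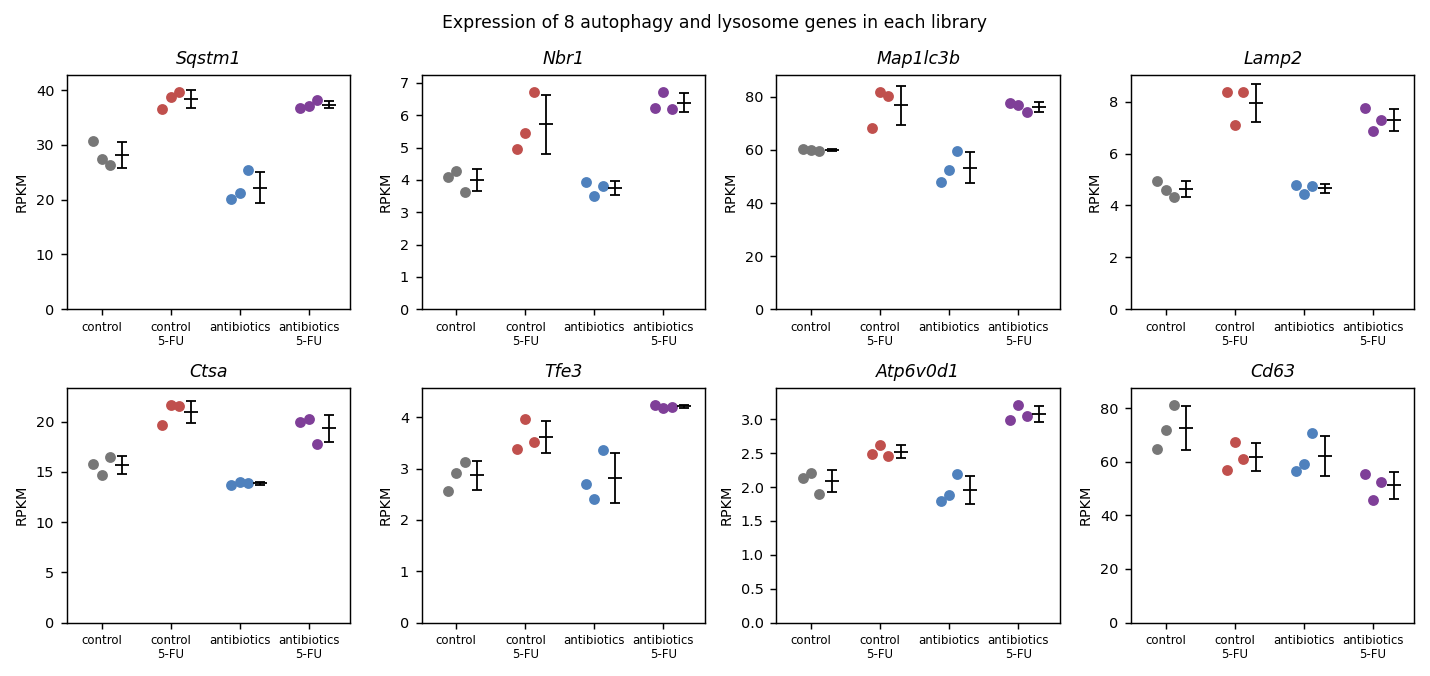
RPKM of 8 members in each library of the 4 groups (points), with the mean and SD of the 3 libraries as a bar beside them. In *Sqstm1*, *Nbr1*, *Map1lc3b*, *Lamp2*, *Ctsa*, *Tfe3* and *Atp6v0d1* the 5-FU libraries lie above the steady-state libraries of their arm, and in *Cd63* they lie lower with overlap in the control arm.

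Of 12 other receptor genes in the deposited data, 11 were tested. In the mean of both arms 5 rose and 1 fell, beside 20.2% and 23.4% of all genes (4 and 1 without antibiotics, 3 and 1 with them, and a median change of 0.15). *Calcoco1*, a receptor for the endoplasmic reticulum, went from 4.74 ± 0.359 to 7.60 ± 0.561 RPKM without antibiotics and from 4.27 ± 0.511 to 9.13 ± 0.675 with them. *Bnip3l*, the receptor NIX that directs mitochondria to autophagosomes, rose by 0.48 ± 0.047 and *Tax1bp1*, which binds ubiquitin-tagged cargo, by 0.43 ± 0.058 in the mean of both arms (limma adjusted p = 3.72e-05 and 0.000233). *Phb2*, a prohibitin of the inner mitochondrial membrane, fell by 0.29 ± 0.058 (adjusted p = 0.00235), a call lost when the libraries were rescaled to one total (adjusted p = 0.0759).

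*Tfe3* (chrX:7762560-7775202) was the measured member of the transcription factors. It was at 2.57, 2.92 and 3.13 RPKM in control, 3.37, 3.96 and 3.52 in control 5-FU, 2.69, 2.40 and 3.36 in antibiotics, and 4.23, 4.19 and 4.20 in antibiotics 5-FU. The antibiotics 5-FU libraries were nearly equal and above all others. *Tfe3* rose with antibiotics by 0.46 ± 0.095 (limma adjusted p = 0.00518), and without them the groups did not overlap but the change of 0.25 ± 0.095 was not called (adjusted p = 0.0776). *Tfeb* ranged from 0.272 to 0.512 RPKM. The other MiT and FOXO factors were also low, with means of at most 0.553 for *Tfec*, 0.0519 for *Mitf*, 0.172 for *Foxo1*, 0.449 for *Foxo3* and 0.261 for *Foxo4*, and none was tested.

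The CLEAR element can be looked for in the members' promoters, taken from RefSeq (GRCm38.p6, the assembly also called mm10) as 250 bases before to 50 after each gene start. Of the 38 members 31 had a promoter there. The 10-base palindrome GTCACGTGAC was in 0 of the 31, beside 0.37% of 27025 genes with a promoter and 0.83% of the 5664 tested here. The 8-base palindrome TCACGTGA, which lies inside it, was in 6 of 31 members (19.4%), against 1.12% of all genes and 2.52% of those tested. The core CACGTG, which lies inside both, was in 11 of 31 (35.5%), against 8.09% of all genes and 12.7% of those tested. All 3 motifs read the same on both strands. The stretches that hold the 8-base palindrome, and that of *Lamp1*, which holds 4 cores, are shown 5′ to 3′ on the gene's strand because they carry this comparison, with the palindrome or core in capitals.
Ctsa: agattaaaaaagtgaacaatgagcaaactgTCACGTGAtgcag
Mcoln1: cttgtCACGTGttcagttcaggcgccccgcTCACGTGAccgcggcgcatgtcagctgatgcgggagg
Atp6v0d1: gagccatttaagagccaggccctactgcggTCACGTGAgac
Ctsd: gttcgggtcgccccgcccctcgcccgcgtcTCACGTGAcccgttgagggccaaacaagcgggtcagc
Atp6v1a: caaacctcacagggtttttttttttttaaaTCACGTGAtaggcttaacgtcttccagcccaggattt
Atg3: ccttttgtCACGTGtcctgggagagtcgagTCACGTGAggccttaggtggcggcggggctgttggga
Lamp1: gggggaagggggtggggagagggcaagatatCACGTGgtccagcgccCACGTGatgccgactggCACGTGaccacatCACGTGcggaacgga

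These stretches lie at chr2:164833730-164833772 (*Ctsa*), chr8:3500443-3500509 (*Mcoln1*), chr8:105566058-105566098 (*Atp6v0d1*), chr7:142387890-142387956 (*Ctsd*), chr16:44139355-44139421 (*Atp6v1a*), chr16:45158727-45158793 (*Atg3*) and chr8:13159069-13159160 (*Lamp1*). Those of *Ctsa*, *Ctsd* and *Atp6v1a* lie inside the gene as the deposited data place it, and those of *Mcoln1*, *Atg3* and *Lamp1* partly so. For these genes the deposited interval begins further upstream than the RefSeq gene start. The first base of the core in the palindrome shown was 12 bases before the RefSeq gene start in *Ctsa* and 3 before it in *Atp6v0d1*. A second *Ctsa* palindrome just past the RefSeq start is not printed. By response, 3 of 16 members with a promoter that rose in the mean of both arms held the 8-base palindrome (*Atp6v0d1*, *Ctsa* and *Mcoln1*), as did 3 of 9 tested members that were not called (*Atg3*, *Atp6v1a* and *Ctsd*). A match describes letters in these windows and does not show binding.

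Among lysosomal membrane proteins, *Lamp2*, which encodes a main coat protein of the membrane and, in 1 isoform, the receptor of chaperone-mediated autophagy (chrX:38401357-38456454), had the smallest p of all members without antibiotics and in the mean of both arms. It was at 4.94, 4.61 and 4.34 RPKM in control and 8.37, 7.11 and 8.36 in control 5-FU, and at 4.77, 4.45 and 4.75 in antibiotics and 7.74, 6.87 and 7.29 in antibiotics 5-FU. The 6 steady-state libraries stayed within 4.34 to 4.94 and the 6 after 5-FU within 6.87 to 8.37. *Lamp2* rose by 0.67 ± 0.078 without antibiotics and 0.55 ± 0.078 with them (limma adjusted p = 0.000585 and 0.00078), and both calls held in every alternative run. The table has 1 value per gene, so isoforms were not separated.

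*Lamp1*, the other main coat protein, behaved less evenly. It was at 2.13, 1.90 and 2.45 RPKM in control and 2.81, 2.59 and 3.35 in control 5-FU, without overlap, and at 5.41, 2.91 and 1.92 in antibiotics and 3.75, 2.47 and 4.26 in antibiotics 5-FU. Antibiotics replicate 1 was the highest library of all, and no comparison called *Lamp1*. The same library was the highest steady-state one for *Map1lc3a* (5.15) and *Wipi2* (3.35). Over the 12 libraries *Map1lc3a* correlated with *Lamp1* at r = 0.834 and with *Wipi2* at r = 0.898, on log2 values from libraries that share depth and group, as a description.

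*Mcoln1*, the calcium channel of the lysosome, averaged 1.67 ± 0.14 in control, 2.46 ± 0.809 in control 5-FU, 1.88 ± 0.117 in antibiotics and 2.46 ± 0.0303 in antibiotics 5-FU (SD, n = 3). It rose in the mean of both arms by 0.31 ± 0.09 (limma adjusted p = 0.017), a call lost with no filter on low values (adjusted p = 0.0562). *Npc1*, which moves cholesterol out of the lysosome, averaged 0.814 ± 0.101 in control and 1.03 ± 0.0665 in control 5-FU, and rose in that mean by 0.16 ± 0.053 (adjusted p = 0.0286). *Npc1* reached 1 RPKM in 3 libraries, all after 5-FU. It passed the filter only through the groups where it was high, so its call is not independent of the filter. *Laptm5*, a membrane protein of hematopoietic lysosomes, lay between 47.0 and 64.4 and rose by 0.19 ± 0.067 (adjusted p = 0.0411). The calls of *Npc1* and *Laptm5* were lost in 7 and 9 of 12 fits without 1 library (adjusted p up to 0.073 and 0.0976).

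*Cd63*, a tetraspanin of late endosomes and exosomes (chr10:128908919-128912816), was the member that fell. It was at 64.8, 72.0 and 81.2 RPKM in control and 57.0, 67.4 and 61.0 in control 5-FU, with overlap, and at 56.4, 59.2 and 70.6 in antibiotics and 55.6, 45.8 and 52.5 in antibiotics 5-FU, without. In the mean of both arms *Cd63* fell by 0.25 ± 0.081 (limma adjusted p = 0.0281), a call lost in 5 of 12 fits without 1 library (adjusted p up to 0.071) and when the libraries were rescaled to one total (change -0.07, adjusted p = 0.414). Its processed copy *Cd63-ps*, 98.02% identical over 858 bases, was at 160.6 ± 12.0 in control and 146.5 ± 6.10 in control 5-FU. *Cd63-ps* went from 148.0 ± 4.93 in antibiotics to 116.2 ± 11.4 in antibiotics 5-FU, a fall with an adjusted p of 0.00988, so the split of reads between gene and copy is uncertain.

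Of 27 other genes for lysosomal membrane proteins and transporters in the table, 13 were tested. In the mean of both arms 6 rose and 0 fell, beside 20.2% and 23.4% of all genes (4 rose without and 5 with antibiotics). *Scarb2*, which carries the enzyme glucocerebrosidase to the lysosome, went from 0.822 ± 0.113 to 1.42 ± 0.0726 RPKM without antibiotics and from 0.746 ± 0.0551 to 1.51 ± 0.0507 with them. Its steady-state libraries were under 1 RPKM, so it passed the filter only through the libraries after 5-FU, where it was high. *Laptm4b* rose by 0.43 ± 0.054 and *Sidt2* by 0.57 ± 0.12 in the mean of both arms (limma adjusted p = 0.000136 and 0.00337). *Cd68*, chosen after its value was seen and used as a macrophage marker in other settings, rose by 0.99 ± 0.23 (adjusted p = 0.00578).

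Of the 9 hydrolases, activators and lumenal proteins, 5 rose and 0 fell in the mean of both arms, beside 20.2% and 23.4% of all genes. *Ctsa*, a carboxypeptidase that also protects neuraminidase and beta-galactosidase (chr2:164832873-164841032), was at 15.8, 14.7 and 16.5 RPKM in control and 19.7, 21.7 and 21.6 in control 5-FU. It was at 13.7, 14.0 and 13.9 in antibiotics and 20.02, 20.3 and 17.8 in antibiotics 5-FU. All 6 libraries after 5-FU lay above all 6 before it. *Ctsa* rose by 0.40 ± 0.073 without antibiotics and 0.45 ± 0.073 with them (limma adjusted p = 0.00454 and 0.00139), in every alternative run.

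*Psap*, the precursor of the saposins that present lipids to hydrolases, was at 17.6, 21.4 and 17.0 RPKM in control and 23.1, 20.1 and 24.2 in control 5-FU, with overlap. It was at 15.9, 14.4 and 19.4 in antibiotics and 23.6, 26.7 and 23.6 in antibiotics 5-FU, without. *Psap* rose with antibiotics by 0.55 ± 0.12 (limma adjusted p = 0.0065), and the change without them was 0.26 ± 0.12 (adjusted p = 0.15). The difference between these changes was 0.30 ± 0.17 (adjusted p = 0.665).

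*Hexa*, the alpha subunit of beta-hexosaminidase, went from 4.67 ± 0.192 in antibiotics to 5.61 ± 0.28 in antibiotics 5-FU, a rise of 0.22 ± 0.069 (limma adjusted p = 0.0329) that was lost in 5 of 12 fits without 1 library (adjusted p up to 0.109). Without antibiotics it was at 5.84 ± 0.494 and 6.54 ± 0.0486. In the mean of both arms *Hexa* rose by 0.18, a call that held in every alternative run (limma adjusted p up to 0.0377). *Gaa*, acid alpha-glucosidase, ranged from 16.4 to 25.4 RPKM, *Npc2*, which hands cholesterol to Npc1, from 4.66 to 6.63, and *Ctsz*, a carboxypeptidase, from 9.28 to 12.8, with no call in any comparison. *Ctsz* overlaps *Nelfcd*, a gene on the other strand with 5.75 to 7.23 RPKM, and whether counting used strand is not stated in those sources.

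The cysteine proteases *Ctsb* and *Ctsl* had large 5-FU means that came from 2 libraries. *Ctsl* was at 13.8, 11.7 and 9.51 RPKM in control and 96.9, 15.2 and 14.5 in control 5-FU, and at 9.38, 12.1 and 10.6 in antibiotics and 60.7, 17.0 and 16.7 in antibiotics 5-FU. *Ctsb* was at 16.8, 16.6 and 15.6 in control and 51.6, 17.8 and 19.6 in control 5-FU, and at 12.5, 14.1 and 15.1 in antibiotics and 32.6, 17.2 and 18.7 in antibiotics 5-FU. Replicate 1 of each 5-FU group stood far above its fellows, and the other 4 libraries after 5-FU also lay above all steady-state libraries.

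In the mean of both arms *Ctsl* rose by 1.21 ± 0.45 and *Ctsb* by 0.64 ± 0.24 (limma adjusted p = 0.0484 and 0.0464). These calls were lost in 7 and 8 of 12 fits without 1 library (adjusted p up to 0.106 and 0.104) and with no filter on low values (0.157 and 0.149). Without control 5-FU replicate 1 alone the changes were 0.77 and 0.41 (adjusted p = 0.0489 and 0.0372). Without both of the high libraries, an alternative chosen after the data were seen, the changes were smaller with smaller p: 0.48 for *Ctsl* (adjusted p = 0.00424) and 0.27 for *Ctsb* (adjusted p = 0.0106). The 2 libraries are those that stood apart in the stroma and endothelium list. By a rule also set after seeing them, 62 features were above 2 RPKM in both and more than 2 times the highest of the other 10 libraries after adding 0.5, while the pairs of the other 5 i7 indexes gave 0 features each. *Ctsl* was the 1 member among the 62. Others, chosen here after their values were seen, were *Cldn5*, the tight junction protein claudin 5 of endothelium, at 131.6 and 82.0 RPKM against at most 6.82 elsewhere, *Plvap*, *Stab1* and *Flt4*, and the lysosomal protease gene *Lgmn* at 4.58 and 2.27 against at most 0.61. The part of endothelial RNA in the *Ctsl* and *Ctsb* values was not tested.

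**Figure D3:**
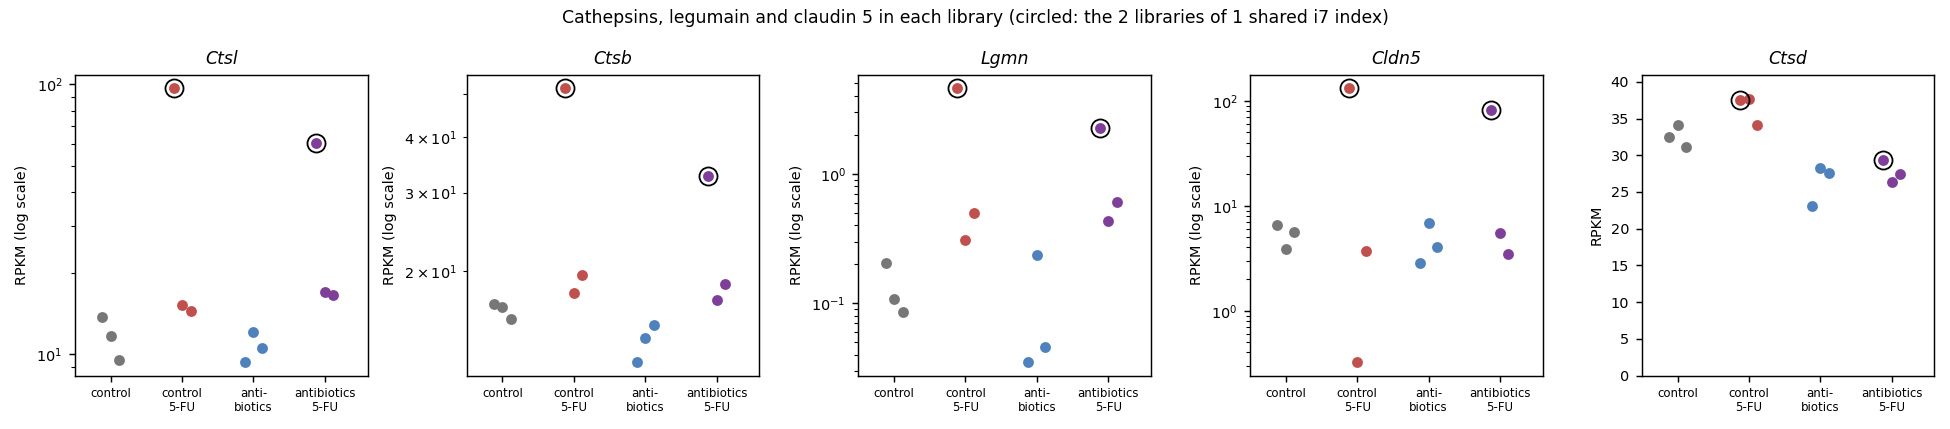
RPKM of *Ctsl*, *Ctsb*, *Lgmn* and *Cldn5* (log axes) and of *Ctsd* (linear axis from 0) in each library of the 4 groups; circles mark control 5-FU replicate 1 and antibiotics 5-FU replicate 1. The circled libraries are the highest in the first 4 panels, at 96.9 and 60.7 for *Ctsl*, and stand among their groups in *Ctsd*.

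*Ctsd*, the aspartic protease of the lysosome, did not share this pattern. It was at 32.5, 34.1 and 31.1 RPKM in control, 37.6, 37.6 and 34.1 in control 5-FU, 23.1, 28.2 and 27.6 in antibiotics, and 29.4, 26.4 and 27.4 in antibiotics 5-FU. Every library with antibiotics lay below every library without. In no other member was the mean of these 2 libraries more than 1.24 times that of the other 4 after 5-FU, and that highest ratio was of *Optn*, under 1 RPKM.

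The wider set of hydrolases and activators had 46 genes in the table and 37 tested. In the mean of both arms 22 rose and 2 fell, beside 20.2% and 23.4% of all genes. Their median change was 0.22 (12 rose without antibiotics, 17 rose and 1 fell with them). *Tpp1*, tripeptidyl peptidase of the lysosome, went from 21.7 ± 1.49 to 29.6 ± 0.887 RPKM without antibiotics and from 19.5 ± 1.85 to 28.6 ± 1.003 with them. *Asah1*, acid ceramidase, rose by 0.51 ± 0.063 and *Pla2g15*, a phospholipase, by 0.46 ± 0.061 (limma adjusted p = 0.000141 and 0.000197). *Gusb*, beta-glucuronidase, fell by 0.37 ± 0.068 (adjusted p = 0.0014) and *Aga*, aspartylglucosaminidase, by 0.21 ± 0.072 (adjusted p = 0.0366), and only *Aga* of these lost its call when the libraries were rescaled to one total (adjusted p = 0.336).

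Of the V-ATPase subunits, *Atp6v0d1*, which links the rotor to the membrane ring, was at 2.14, 2.21 and 1.90 RPKM in control and 2.48, 2.63 and 2.46 in control 5-FU. It was at 1.80, 1.89 and 2.20 in antibiotics and 2.99, 3.21 and 3.05 in antibiotics 5-FU. The 6 libraries after 5-FU were above the other 6, those with antibiotics highest. *Atp6v0d1* rose with antibiotics by 0.47 ± 0.071 (limma adjusted p = 0.00106), and the change without them was 0.19 ± 0.071 (adjusted p = 0.0741). *Atp6v1a*, the catalytic subunit, and *Atp6v1h*, a regulatory one, had mean changes of 0.08 ± 0.086 and 0.04 ± 0.047 with 95% confidence intervals of -0.11 to 0.27 and -0.06 to 0.14.

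Among 13 tested of 16 other V-ATPase genes, 8 rose and 0 fell in the mean of both arms, beside 20.2% and 23.4% of all genes. Their median change was 0.16 (2 rose without and 4 with antibiotics). *Atp6v1d* rose by 0.34 ± 0.053, *Atp6ap2*, an accessory subunit, by 0.24 ± 0.056, and *Atp6v0c*, of the membrane ring, by 0.27 ± 0.064 (limma adjusted p = 0.000521, 0.00488 and 0.00568). *Atp6v0c* was the most abundant of these, at 36.5 ± 0.676 in control and 45.1 ± 4.48 in control 5-FU. The genes of fusion and lysosome trafficking moved less evenly, with 17 tested among 24. Without antibiotics 0 rose and 2 fell (*Vamp8* and *Vps16*), beside 9.74% and 11.8% of all genes. With antibiotics 3 rose and 0 fell, beside 13.7% and 16.5%. In the mean of both arms 7 rose and 2 fell, beside 20.2% and 23.4% of all genes, with a median of 0.11. *Gnptab*, which makes the mannose 6-phosphate tag of lysosomal enzymes, rose by 0.39 ± 0.094, and *Vamp8*, a SNARE of autophagosome fusion, fell by 0.27 ± 0.068 (adjusted p = 0.00646 and 0.00801), the fall being lost on rescaling to one total (adjusted p = 0.203).

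Of 41 genes of mTORC1, Rag and AMPK signalling in the deposited data, 27 were tested, and 6 rose and 1 fell in the mean of both arms, with a median of 0.08, the lowest of the 8 groups with tested genes. The 6 of 27 that rose are a share close to the 20.2% of all genes that did, and 23.4% of all genes fell. *Prkab1* and *Prkaa1*, subunits of AMPK, rose by 0.55 ± 0.052 and 0.38 ± 0.044, and *Sesn1*, a sestrin that restrains mTORC1, by 0.47 ± 0.071 (limma adjusted p = 3.27e-05, 0.0001 and 0.000432). *Rragb*, a Rag GTPase, fell by 0.24 ± 0.059 (adjusted p = 0.00677), and that call was lost on rescaling to one total (adjusted p = 0.0636).

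**Figure D4:**
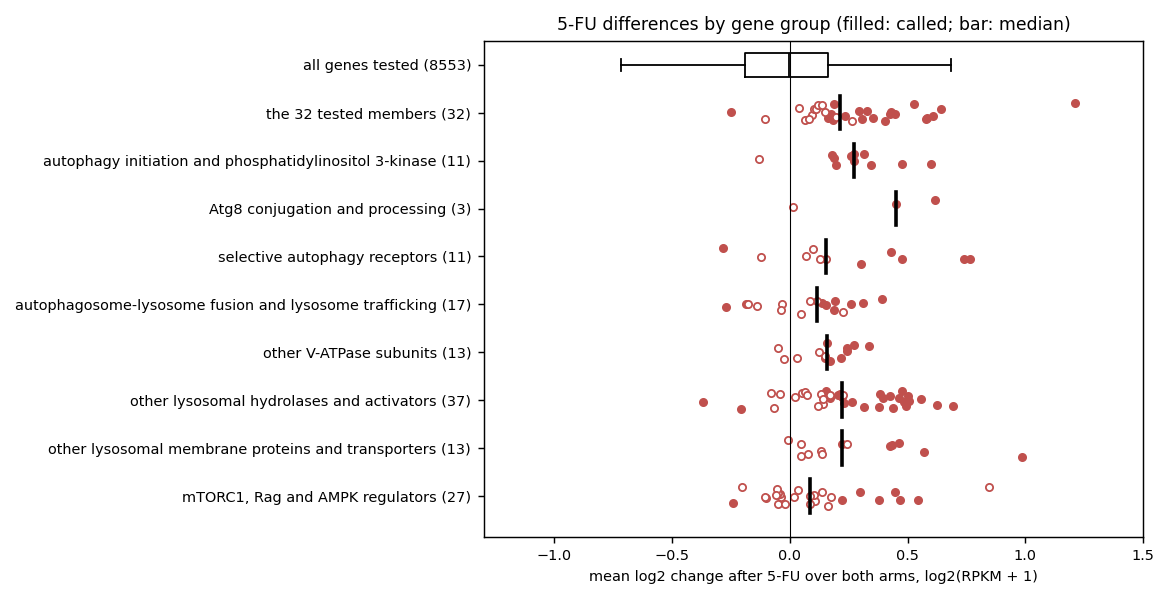
Mean log2 change after 5-FU over both arms for the 32 tested members and 8 groups of other autophagy and lysosome genes (points; filled where called, black bar at the median, number tested in parentheses), with all 8553 genes as a box from the lower to the upper quartile and whiskers to at most 1.5 times that span. The medians of the groups lie from 0.08 to 0.45 and that of all genes at 0.00.

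The calls without antibiotics were the less stable ones. Of the 7 there, 3 held in every alternative run (*Ctsa*, *Lamp2* and *Sqstm1*), and the count was 3 without control replicate 3 and 4 without control 5-FU replicate 2 or control 5-FU replicate 3. Of the 10 with antibiotics 8 held in every alternative, all but *Atg12* and *Hexa*. Of the 20 in the mean of both arms 11 held in every alternative. Rescaling the libraries to one total moved the median change of all genes to 0.14 without and 0.11 with antibiotics and the share of calls that were higher from 45.1% to 81.2% and from 45.4% to 74.1%, and the members' medians to 0.34 and 0.38.

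Antibiotics alone gave no call among the members. Of 32 tested, 0 were called by limma, beside 0.0702% of all genes. At an unadjusted p under 0.05 there were 6, a share close to the 17.8% of all genes, so this count does not set the members apart. All 6 were lower: *Sqstm1* (-0.33 ± 0.091), *Ctsd* (-0.30 ± 0.087), *Hexa* (-0.27 ± 0.069), *Becn1* (-0.24 ± 0.077), *Gaa* (-0.22 ± 0.095) and *Ctsa* (-0.17 ± 0.073), with limma adjusted p from 0.129 to 0.272. The change was negative for 23 members and positive for 9, while it was positive for 54.7% of all genes. The members' median was -0.10 beside 0.02 over all genes. The groups did not overlap, with antibiotics lower, for 6 members (*Becn1*, *Sqstm1*, *Hexa*, *Ctsa*, *Ctsb* and *Ctsd*) beside 9.06% of all genes, and with antibiotics higher for 2 (*Wipi2* and *Atp6v1h*) beside 13% of all genes. For *Sqstm1* the antibiotics libraries, at 20.03 to 25.4 RPKM, lay under the control libraries, at 26.3 to 30.8.

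After 5-FU the comparison of antibiotics with none also called 0 of 32 members with limma, beside 0.117% of all genes. At an unadjusted p under 0.05 there were 5, a share close to the 14.9% of all genes. *Ctsd* differed most, by -0.38 ± 0.087 (adjusted p = 0.0901), with 26.4 to 29.4 RPKM with antibiotics and 34.1 to 37.6 without. It was called when the libraries were rescaled to one total (adjusted p = 0.042). *Cd63* (-0.27 ± 0.11), *Ctsz* (-0.26 ± 0.08), *Hexa* (-0.19 ± 0.069) and *Atp6v0d1* (0.21 ± 0.071) were the others, with adjusted p from 0.161 to 0.307. The groups did not overlap, with antibiotics higher, for 3 members (*Gabarapl1*, *Tfe3* and *Atp6v0d1*) beside 11.5% of all genes, and with antibiotics lower for 6 (*Becn1*, *Cd63*, *Hexa*, *Ctsd*, *Ctsz* and *Gaa*) beside 9.67%. *Sqstm1* differed by -0.04 ± 0.091 here, with a 95% confidence interval of -0.24 to 0.17.

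Whether the 5-FU change itself differed between the arms was tested as an interaction. It called 0 of 32 members with limma, beside 0.0117% of all genes. At an unadjusted p under 0.05 there were 3, a share close to the 8.3% of all genes. They were *Gabarapl1* (0.38 ± 0.16), *Sqstm1* (0.30 ± 0.13) and *Atp6v0d1* (0.27 ± 0.10), each with a larger change with antibiotics. Their adjusted p was 0.598, 0.598 and 0.571. The calls made in 1 arm alone are therefore not shown to differ between the arms. The 132 tested genes of the other autophagy and lysosome groups likewise held 0 limma calls in the interaction, at steady state and after 5-FU. At an unadjusted p under 0.05 there were 9, 20 and 22 of them in that order. These are shares close to the 8.3%, 17.8% and 14.9% of all genes.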

How the data were processed

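Per the labels' protocols, each library began with 2000 sorted HSCs, RNeasy Plus Micro extraction, SMART-Seq v4 amplification and Nextera XT tagmentation. STAR 2.5.3a, Partek and mm10 are named in the submitters' processing notes. No source used here gives the counting rule, strand setting or annotation. The deposited table holds RPKM per feature, as the authors computed it, with a floor of 0.0001. Depth was estimated at 27.8 to 54.8 M reads from what 1 read is worth (0.0183 to 0.036 RPKM in 1 kb), with 69.8% to 76.2% of low values whole within 2%, so no counts were recovered and no count model was used.

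Genes reaching 1 RPKM in 3 or more of the 12 libraries were fitted on log2(RPKM + 1) over all 4 groups with limma 3.58.1 (R 4.3.3; intensity trend, 8 residual degrees of freedom), after tests on simulated data. P-values were Benjamini-Hochberg adjusted over all 8553 genes. Near copies were found with BLAST+ 2.17.0 on GENCODE M21 transcripts, and figures were drawn with matplotlib 3.10.9. The members and lists were chosen with earlier results of these data known. Every member is described. Of each other list up to 3 called genes per direction with the smallest p in a comparison are named, with exceptions stated. Alternatives were another pseudocount, filter, scaling, fit without intensity trend, groups fitted alone, i7 index as a block, and each library left out.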

Additional observations from a re-analysis of the deposited data

How the results depend on the processing

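No direction reversed among the results tested. The count of called members without antibiotics, 7, was 4 with no filter on low values, 18 with libraries rescaled to one total, where 22% of all genes were called higher, 3 with its groups fitted alone, and from 3 to 8 with 1 library left out. With antibiotics the count of 10 was 21 after rescaling to one total, where 24.8% of all genes were called higher, and 8 to 13 with 1 library left out. The 20 calls in the mean of both arms became 12 with a minimum mean of 5 RPKM, where 19 members were tested, and 14 to 19 with 1 library left out. After rescaling to one total they became 27, where 37.5% of all genes were called higher. After 5-FU, antibiotics against none gave 1 call in place of 0 after rescaling to one total, and antibiotics alone and the interaction stayed at 0 in every alternative run. Without both libraries that share the i7 index, an alternative chosen after seeing the data, the 3 counts were 8, 11 and 18. The share of the 31 members with a match in the promoter was 0% for the 10-base palindrome, 19.4% for the 8-base one and 35.5% for the core. The 8-base palindrome and the core are parts of the 10-base one, and a match to a part alone is not a full CLEAR element. Pairing by replicate number was not possible because the labels give no numbers shared between groups. With the i7 index as a block, which pairs each library with antibiotics with 1 without, 0 members were called at steady state, after 5-FU and in the interaction, while calls over all genes went from 6 to 20, from 10 to 22 and from 1 to 0. At this depth 1 read in 1 kb is worth at most 0.036 RPKM, and the 3 libraries per group limit what can be called.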
